A study of Bos indicus with 6 samples.

Results

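The genes described here are the immediate early and stress response genes FOS, FOSB, FOSL2, JUN, JUNB, JUND, EGR1, ATF3, IER2 and DUSP1, followed in the isthmus of the bovine oviduct. They were found by their symbol in the table of 24616 genes. Of the 10 symbols, 9 each had 1 row, and no row carried the symbol JUND, which was not analysed here. All 9 rows passed the filter on low and variable values, as did 15387 rows of the whole table.

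The isthmus, the narrow segment of the oviduct next to the uterus, was taken from 6 multiparous Nelore cows on day 4 after a GnRH injection that induced ovulation, from the side that bore the corpus luteum. The 3 cows of the LF/LCL group had been managed to ovulate a large follicle and form a large corpus luteum, with the progesterone device withdrawn 42 h before GnRH and an added injection of prostaglandin F2α when the device was inserted. The 3 cows of the SF/SCL group had been managed towards a small follicle and a small corpus luteum, with the device withdrawn 30 h before GnRH and no such added injection. All cows of both groups were presynchronised and received the progesterone device with estradiol benzoate, prostaglandin F2α at device removal and GnRH, and those sequenced had been picked from the top of the ranked LF/LCL animals and the bottom of the ranked SF/SCL animals. Each cow gave 1 library of polyadenylated RNA from the whole wall of the isthmus, so cows are the replicates and are called by their numbers, 617, 79 and 527 in LF/LCL and 856, 489215 and 97 in SF/SCL. The question was whether the level of these genes differed between the periovulatory endocrine settings.

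Immediate early genes are transcribed within minutes of a stimulus without new protein synthesis, because the factors that switch them on, such as SRF with its ELK partners and CREB, are already bound or present and are activated by phosphorylation. FOS and JUN proteins pair through leucine zippers to form AP-1, a transcription factor that carries growth factor, hormone and stress signals to later genes, and DUSP1 dephosphorylates the MAP kinases and so closes the loop. The same genes respond to stretch, heat, low oxygen and the handling of tissue, and in the oviduct wall they can be expressed by muscle, stroma and epithelium alike. In bulk tissue, fewer cells of a type and less RNA per cell cannot be told apart.

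The libraries held 23899117 to 34193164 reads assigned to genes. Cow 489215 was the highest of the 6 cows in 36.7% of the rows tested and the lowest in 35.7%, and each comparison of the 9 genes is therefore given with and without it. The chi-square per degree of freedom between the reads of 2 libraries was 34.46 to 44.16 within LF/LCL and 40.95 between cows 856 and 97. Against LF/LCL it was 182.6 to 241 for cows 856 and 97 and 211.5 to 286 for cow 489215. Between cow 489215 and cows 856 and 97 it was 473.4 and 400.1. Leaving out cow 489215 thus keeps only the SF/SCL cows that were alike. As that cow was singled out from these same values, leaving it out narrows the SF/SCL spread by choice. The p-values without it, here and below, therefore understate the spread between cows and are a description. The summed normalized counts of smooth muscle markers (8 of 9 had a row) were 784979 to 904542 in LF/LCL. They were 356885 and 424740.2 in cows 856 and 97, and 1265706 in cow 489215. The summed markers of secretory and general epithelium (7 of 8 had a row) were 25821 to 36824 in LF/LCL and 56378 to 373019 in SF/SCL. The oviductal glycoprotein OVGP1 was at 271794 and 325158 in cows 856 and 97 and at 287 to 1949.9 in the other 4. By qPCR the paper found more OVGP1 in the ampulla than in the isthmus. The tissue label of the libraries was taken as given and was not tested. Fibroblast markers (6 of 6) summed to 290655 to 360334 in LF/LCL and 148879.9 to 205597 in SF/SCL, and mesothelial markers (4 of 4) to 2169.7 to 3139 and 3478 to 26712. Ciliated (8 of 8), endothelial (5 of 6) and leukocyte markers (8 of 8) overlapped between the groups, at 27526 to 50811, 9383 to 14207 and 1896 to 3940.2 over all cows. Erythrocyte markers (3 of 6) summed to at most 6.66, and the ciliary gene PIFO and the globin genes HBB and HBA had 3 or fewer reads in every library. With limma and Benjamini-Hochberg adjustment, 0 of the 15387 rows, 0%, had an adjusted p under 0.05 over the 6 cows at equal weight, while 1333 rows, 8.66%, had an unadjusted p under 0.05. An adjusted p under 0.05 was reached by 18.2% of rows in limma without cow 489215, and by 2.66% in DESeq2 over the 6 cows. The paper used another test, the negative binomial test of DESeq, and reported differentially expressed isthmus genes in both directions.

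None of the 9 genes passed the adjusted threshold in limma with all cows weighted equally. With array weights, which give less weight to libraries that vary more, FOSL2, EGR1 and DUSP1 passed it in limma, 3 of 9 beside 29.8% of all rows. With equal weights, the phosphatase gene DUSP1 was the 1 gene of the 9 with an unadjusted p under 0.05, against a background of 8.66% of rows, and the 1 gene whose groups did not overlap, against 18.1% of rows in either direction and 9.51% with SF/SCL higher. For the other 8 genes the 95% interval of the difference included 0. By the sign of the estimate, FOSB, JUN, JUNB, ATF3, IER2 and DUSP1 were above 0 and FOS, FOSL2 and EGR1 below, but only EGR1, ATF3 and DUSP1 held their sign under every alternative run, and JUNB was at -0.01 with library totals. The median log2 fold change of the 9 genes, SF/SCL over LF/LCL, was 0.10, beside -0.02 over all rows tested. Without cow 489215 it was 0.10 beside -0.00.

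**Figure D1:**
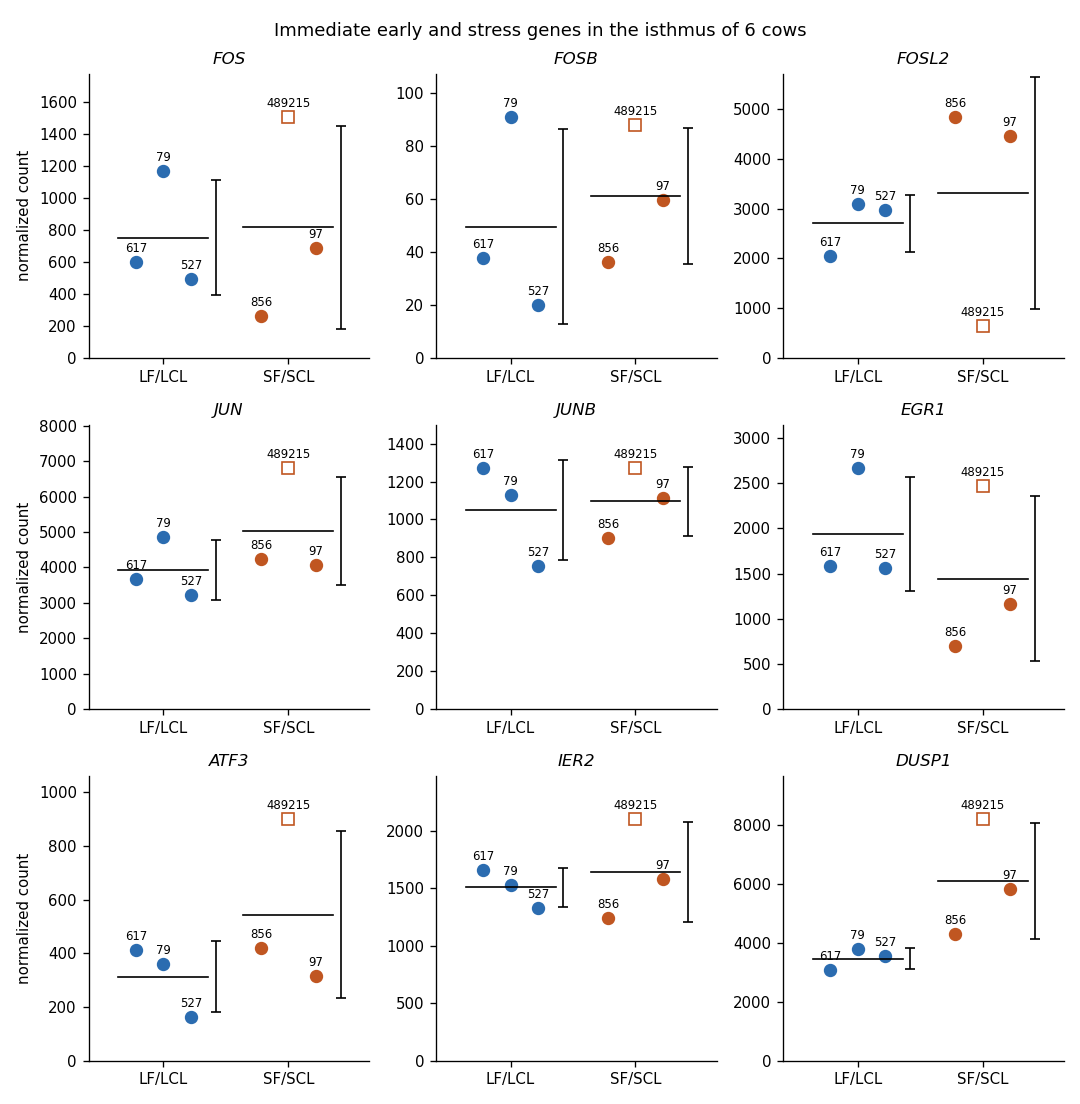
Normalized count (read count divided by the size factor of the library, linear axis from 0) of each of the 9 genes in each cow, with LF/LCL in blue, SF/SCL in orange and cow 489215 as an open square. Horizontal lines are group means and bars the SD over 3 cows, and only in DUSP1 do all 3 SF/SCL cows, at 4301.5 to 8184, lie above all 3 LF/LCL cows, at 3071 to 3770.4.

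Of the FOS family, FOS itself (ENSBTAG00000004322), the classic AP-1 subunit and the partner that needs a JUN protein to bind DNA, had normalized counts of 599, 1167 and 495 in cows 617, 79 and 527 and of 261, 1506 and 687 in cows 856, 489215 and 97. The lowest and the highest cow of all 6 were both SF/SCL cows, 5.78-fold apart, and the LF/LCL values lay between them. The means were 753 ± 362 and 818 ± 633 (SD, n = 3 each). They gave a log2 fold change of -0.12 ± 0.67 (SE), with a 95% interval of -1.72 to 1.48 and an adjusted p of 0.973 (limma with Benjamini-Hochberg adjustment). Without cow 489215 it was -0.73, with an adjusted p of 0.352, and the remaining cows still overlapped, whereas it was 0.25 without cow 79 and 0.54 without cow 856. In edgeR and DESeq2 on the reads of all 6 cows the sign turned, at 0.08 and 0.11.

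FOSB (ENSBTAG00000008182), a close relative of FOS that also depends on a JUN partner, was represented by only 23 to 97 reads per library. Its normalized counts were 37.7, 91.0 and 20.2 in LF/LCL and 36.5, 87.9 and 59.6 in SF/SCL, in the same order of cows. As for FOS, cows 79 and 489215 were the highest 2 of the 6, 1 in each group. Limma gave a log2 fold change of 0.47 ± 0.64 (SE), with a 95% interval of -1.06 to 2.01 and an adjusted p of 0.892, and of 0.17 with an adjusted p of 0.880 without cow 489215. Without cow 527, the lowest cow, it was -0.02.

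FOSL2 (ENSBTAG00000023929), the FOS-related subunit often found in longer-lasting AP-1, had another order of cows. Its normalized counts were 2052.5, 3084 and 2978 in LF/LCL and 4835, 638 and 4458 in SF/SCL, so that cows 856 and 97 were the highest of the 6 and cow 489215 the lowest, 7.58-fold below cow 856. Over 6 cows the groups overlapped, with a log2 fold change of -0.15 ± 0.78 (SE), a 95% interval of -2.02 to 1.71 and an adjusted p of 0.969 in limma. The sign was positive in edgeR, at 0.28, in DESeq2, at 0.30, and in limma with array weights, at 0.66 with an adjusted p of 0.0312.

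Without cow 489215 FOSL2 was 1.72-fold higher in the 2 remaining SF/SCL cows than in LF/LCL, with a log2 fold change of 0.80 ± 0.18 (SE), a 95% interval of 0.36 to 1.25 and an adjusted p of 0.0313 in limma. The edgeR quasi-likelihood test on the reads of the same 5 cows gave 0.78 with an adjusted p of 0.0326. FOSL2 was then the 1 gene of the 9 past the threshold, while 18.2% of all rows passed it, so a count of 1 in 9 is near the background. Cows 856 and 97, with the high FOSL2 values, were also the cows with the high sums of mesothelial markers and the low sums of smooth muscle markers given above. Their high sums of epithelial markers were mostly OVGP1: the other 6 epithelial markers summed to 40265 and 47861 in these cows and to 55648 in cow 489215, where FOSL2 was lowest. Ciliated epithelium markers were highest in cows 856 and 97, at 46302 and 50811, and lowest in cow 489215, at 27526. They did not follow FOSL2 among the LF/LCL cows. Cow 527, at 27812, was close to cow 489215 in these markers but had FOSL2 at 2978. Cow 617, at 35331, had the highest ciliated sum of LF/LCL and its lowest FOSL2, at 2052.5. The part of that tissue makeup in the FOSL2 value was not tested.

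Of the JUN family, JUN (ENSBTAG00000004037), the AP-1 subunit that can also pair with itself and is activated by the JNK kinases, had normalized counts of 3671, 4867 and 3221 in LF/LCL and 4238, 6798 and 4059 in SF/SCL. Cow 489215 was the highest and cow 79 the next, and the other 4 cows lay between 3221 and 4238. The means of 3919 ± 851 and 5032 ± 1532 (SD, n = 3 each) differed by less than the SD of the SF/SCL cows. In limma the log2 fold change was 0.34 ± 0.27 (SE), with an adjusted p of 0.827, and 0.10 with an adjusted p of 0.718 without cow 489215.

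JUNB (ENSBTAG00000012046), a JUN relative that in many settings restrains the activity of JUN, had the smallest range of the 9 genes, 1.68-fold from the lowest to the highest cow. Its normalized counts were 1269.6, 1126 and 757 in LF/LCL and 904, 1270.1 and 1112 in SF/SCL. The highest value of each group was thus nearly the same. The log2 fold change of 0.08 ± 0.26 (SE) had a 95% interval of -0.55 to 0.71 and an adjusted p of 0.956 in limma, and it was -0.03 with an adjusted p of 0.936 without cow 489215 and -0.14 without cow 527.

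EGR1 (ENSBTAG00000010069), a zinc finger factor switched on through SRF and ELK proteins, had normalized counts of 1584, 2664 and 1556 in LF/LCL and 703, 2464 and 1165 in SF/SCL. Cows 856 and 97 were the lowest of the 6, while cow 489215 was second only to cow 79. The means were 1935 ± 632 and 1444 ± 913 (SD, n = 3 each), and the log2 fold change was -0.57 ± 0.48 (SE), with a 95% interval of -1.72 to 0.59 and an adjusted p of 0.836 in limma. Without cow 489215 the groups did not overlap, and the log2 fold change was -1.05 ± 0.30 (SE), with a 95% interval of -1.77 to -0.32 and an adjusted p of 0.0587 in limma and 0.0670 in edgeR, which missed the threshold. With array weights over the 6 cows it was -0.999 with an adjusted p of 0.0232 in limma. The estimate was negative under every alternative run, from -1.05 to -0.14.

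ATF3 (ENSBTAG00000008545), a bZIP factor induced by many kinds of cell stress that can pair with JUN proteins, had normalized counts of 413, 360.4 and 162 in LF/LCL and 419, 899 and 313 in SF/SCL. Cow 489215 had more than double the value of any other cow, and cow 527 the lowest. The means of 312 ± 132 and 543 ± 312 (SD, n = 3 each) gave a log2 fold change of 0.76 ± 0.52 (SE), with a 95% interval of -0.49 to 2.01 and an adjusted p of 0.780 in limma. Without cow 489215 the log2 fold change was 0.32, with an adjusted p of 0.623.

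IER2 (ENSBTAG00000016354), a nuclear protein named for its rapid induction, ranged 1.69-fold over the cows. Its normalized counts were 1661, 1529.95 and 1329.8 in LF/LCL and 1240.4, 2099.6 and 1583 in SF/SCL. Cow 489215 was the highest and cow 856 the lowest, with the LF/LCL cows between them. In limma the log2 fold change was 0.10 ± 0.24 (SE), with an adjusted p of 0.940, and -0.10 with an adjusted p of 0.684 without cow 489215.

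DUSP1 (ENSBTAG00000013863), the phosphatase that inactivates p38, JNK and ERK and is also a glucocorticoid and progesterone target in several tissues, had normalized counts of 3071, 3770.4 and 3541 in LF/LCL and 4301.5, 8184 and 5807 in SF/SCL. Every SF/SCL cow was above every LF/LCL cow, the LF/LCL cows lay close together, and the SF/SCL cows were spread over nearly a doubling. The means were 3461 ± 357 and 6097 ± 1957 (SD, n = 3 each), 1.76-fold apart, with a log2 fold change of 0.77 ± 0.26 (SE) and a 95% interval of 0.14 to 1.40. Its unadjusted p in limma was 0.0237 and its adjusted p 0.480, and a two-sided exact permutation test over all 10 ways to split the cows gave p = 0.1, which is the smallest possible with 3 against 3.

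The DUSP1 difference kept its sign under every alternative run, with a log2 fold change from 0.54 to 1.00. Without cow 489215 the means were 1.46-fold apart, with a log2 fold change of 0.54 ± 0.15 (SE) and an adjusted p of 0.0590 in limma. The adjusted p over all 6 cows was 0.436 in edgeR and 0.159 in DESeq2, and 0.0077 in limma with array weights. Scaling to library totals in place of size factors, an alternative chosen after the data were seen, gave 0.68 with an adjusted p of 0.455 in limma. The summed markers of secretory and general epithelium, with or without OVGP1 (23872 to 36537 in LF/LCL without it), and those of mesothelium were also higher, and those of fibroblasts lower, in all 3 SF/SCL cows than in all 3 LF/LCL cows, and their part in the DUSP1 difference was not tested.

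**Figure D2:**
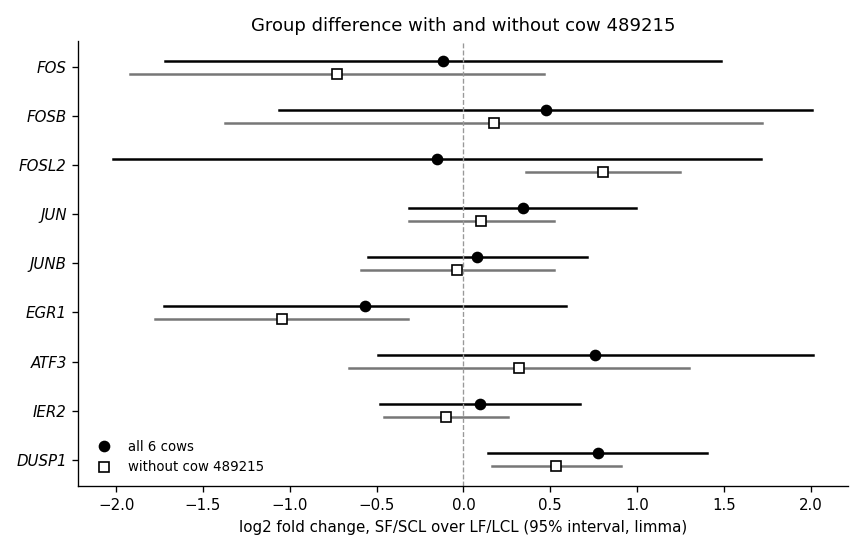
Log2 fold change of the 9 genes, SF/SCL over LF/LCL, from limma on log2(normalized count + 1), with 95% intervals, for all 6 cows (filled circles) and without cow 489215 (open squares). With 6 cows the interval of DUSP1 alone, 0.14 to 1.40, lies off 0, and without cow 489215 those of FOSL2, EGR1 and DUSP1 do.

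Without cow 489215 the groups of 3 of the 9 genes did not overlap, FOSL2 and DUSP1 with SF/SCL higher and EGR1 with SF/SCL lower. With 3 cows against 2, however, 52% of all rows did not overlap, so 3 of 9 was not above the background. Cow 489215 itself was the highest of the 6 cows in 6 of the 9 genes, FOS, JUN, JUNB, ATF3, IER2 and DUSP1, and the lowest in FOSL2, beside 36.7% and 35.7% of all rows. JUNB led by less than 1 normalized count, and with library totals cow 489215 was the highest in 5 of the 9.

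The distance of cow 489215 from the other cows differed between the genes. Its value over the median of the other 5 was 2.52-fold in FOS, 2.49-fold in ATF3, 2.33-fold in FOSB and 2.17-fold in DUSP1, but 1.14-fold in JUNB and 0.207-fold in FOSL2. These values can be read against all rows tested, of which 95.7% lay below FOS, 95.5% below ATF3, 93.7% below FOSB, 92.1% below DUSP1 and 56.7% below JUNB by the same measure. FOSL2 was near the other end, with 6.83% of rows below it. For JUN it was 80.8%, for EGR1 77.6% and for IER2 68.4%. Cow 489215 was thus high in FOS, FOSB, ATF3 and DUSP1, less so in JUN, EGR1, IER2 and JUNB, and low in FOSL2 within the same library.

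Ratios of reads within a library do not depend on the size factor, and those given here were chosen after the values had been seen and are not tested. They are not ratios of molecules, since gene lengths were not taken into account. The ratio of FOS to FOSL2 was 0.292, 0.378 and 0.166 in cows 617, 79 and 527 and 0.0539, 2.36 and 0.154 in cows 856, 489215 and 97. It was therefore 43.8-fold higher in cow 489215 than in cow 856, although both were SF/SCL cows. FOS and EGR1 moved more nearly together, with a ratio of 0.318 to 0.438 in LF/LCL and 0.370 to 0.611 in SF/SCL.

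The ratio of EGR1 to DUSP1 was 0.516, 0.706 and 0.439 in LF/LCL and 0.164, 0.301 and 0.201 in SF/SCL. All 3 SF/SCL cows, cow 489215 among them, lay below all 3 LF/LCL cows. The ratio of DUSP1 to IER2 was 1.85, 2.46 and 2.66 in LF/LCL and 3.47, 3.90 and 3.67 in SF/SCL, without overlap. In this ratio cow 489215 lay beside the other SF/SCL cows, where its DUSP1 count alone stood well above theirs. Both ratios hold DUSP1, whose own groups did not overlap, so they are not separate results. The other ratios computed overlapped between the groups. Among them was FOS to DUSP1, at 0.140 to 0.309 in LF/LCL and 0.0606 to 0.184 in SF/SCL.

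**Figure D3:**
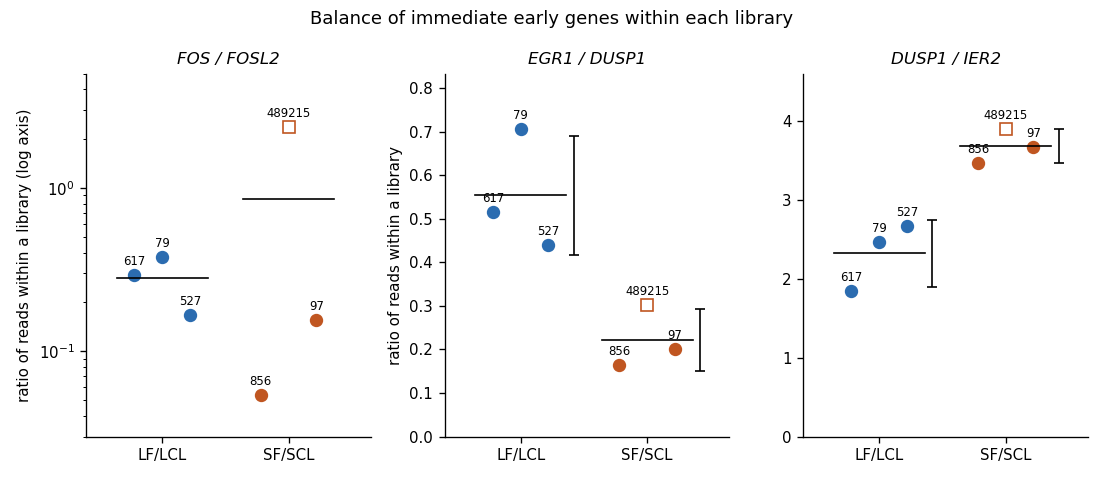
Ratio of reads within each library for FOS to FOSL2 (log axis), EGR1 to DUSP1 and DUSP1 to IER2 (linear axes from 0), with LF/LCL in blue, SF/SCL in orange, cow 489215 as an open square, lines for group means and, on the linear axes, bars for the SD over 3 cows. The groups overlap in the first ratio, which reaches 2.36 in cow 489215, and do not overlap in the other 2, both of which hold DUSP1.

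Over the 6 cows, the mean of the other 8 genes had a Pearson r of 0.95 with FOSB, 0.85 with JUN, 0.78 with IER2, 0.77 with FOS and 0.75 with JUNB on the log2 scale. It was lower for ATF3 at 0.59, DUSP1 at 0.54 and EGR1 at 0.49, and negative for FOSL2 at -0.75. These are descriptions over 6 points that share 1 library standing apart. Over the other 5 cows FOSB stayed at 0.97 and JUN at 0.78, while FOSL2 was at -0.16 and DUSP1 at 0.17. Among 11640 rows with a mean of at least 100, the 10 whose values followed the mean of the 9 genes most closely included DCTD, GSPT1, C25H7ORF50, COMMD9, CREM, ISYNA1, PNRC2, MPHOSPH10 and ZNRD1, with r from 0.93 to 0.98 over 6 cows and from 0.90 to 0.98 over 5. These rows were picked by r itself over 6 points, so a high r was set by the choice. The r over 5 cows uses the same points and is no check. CREM, a cAMP-responsive relative of CREB that is itself rapidly induced, had normalized counts of 165, 211 and 119 in LF/LCL and 166, 336 and 210.3 in SF/SCL, highest in cow 489215 and next in cow 79, as for JUN.

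Around these genes, 150 others of the same response were listed in 7 groups, of which 137 had a row, and 133 rows were tested. Of these, 2 (EGR3 and EREG) had a mean above 5 in LF/LCL only and so passed the filter through that group. None of the 133 passed the adjusted threshold in limma with equal weights over the 6 cows, while 44, 33.1%, passed it with array weights, beside 29.8% of all rows. With equal weights, 7 had an unadjusted p under 0.05 with SF/SCL lower and 10 with SF/SCL higher, 12.8% beside 8.66% of all rows, and without EGR3 and EREG it was 6 lower and 10 higher of 131, or 12.2%. The groups did not overlap in 9 lower and 13 higher, 16.5% beside 18.1% of all rows. In DESeq2, 7 of the 133 passed the adjusted threshold, beside 2.66% of all rows. Without cow 489215, 10 lower and 15 higher of 132 passed it in limma, 18.9% beside 18.2%. EGR3 is counted in these calls and among the 44, and adds no support. The lists were chosen with earlier results of these data known, so these shares are a description.

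Among the other AP-1 and dimer partners, 10 of 11 tested genes had lower estimates in SF/SCL, with a median log2 fold change of -0.32, and none had an unadjusted p under 0.05. Without cow 489215, 8 of the 11 were lower. MAF, a bZIP factor that can pair with AP-1 subunits, had a log2 fold change of -0.62 with an adjusted p of 0.836 (limma). It was lowest in cow 489215, and without that cow the log2 fold change was -0.05. FOSL1, the other FOS-related subunit, had 1 to 3 reads per library and was not tested.

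Of 23 other primary response transcription factors tested, EGR2, NPAS4 and SRF had an unadjusted p under 0.05 with SF/SCL lower. HES1 reached it with SF/SCL higher, and 8.66% of all rows reached it in either direction. EGR3 is left out of these calls. EGR3, a relative of EGR1 that binds the same DNA element, had normalized counts of 20.9, 29.1 and 25.5 in LF/LCL and 3.80, 3.99 and 3.25 in SF/SCL. These were 20 to 31 reads per LF/LCL library and 3 to 5 reads per SF/SCL library, and the summed reads, scaled by the size factors, were 6.88-fold higher in LF/LCL with an exact 95% interval for counting error of 3.65 to 14.3. Because EGR3 passed the filter only through LF/LCL, where it was high, these values are a description and its test results are not given as support.

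EGR2, which like EGR1 is restrained by the NAB corepressors, had normalized counts of 36.6, 24.4 and 13.2 in LF/LCL and 5.32, 3.99 and 6.50 in SF/SCL, from 3 to 7 reads per SF/SCL library. The summed reads were 4.50-fold higher in LF/LCL, with an exact 95% counting interval of 2.60 to 8.26, and limma gave -1.95 ± 0.52 (SE) with an adjusted p of 0.405. In EGR2 and EGR3, unlike EGR1, cow 489215 lay with the other SF/SCL cows. EGR4 had 0 reads in every library, which for counting error alone allows up to 3 reads in each.

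SRF, the serum response factor that drives both immediate early and muscle genes, had normalized counts of 3899.9, 4087 and 3201 in LF/LCL and 2501, 2012 and 2172 in SF/SCL. The groups did not overlap, and cow 489215 again lay with its group. The marker sums of fibroblasts (lower in SF/SCL), epithelium and mesothelium (higher) separated the same cows, as they did beside EGR2, EGR3, HES1, DUSP4, SOCS3, ELK3, RPS6KA1 and MAPK13, and their part was not tested. The log2 fold change was -0.74 ± 0.18 (SE), with an adjusted p of 0.381 in limma and 0.0275 in DESeq2, and without cow 489215 it was -0.67 with an adjusted p of 0.0202 in limma. NPAS4, a bHLH-PAS factor known from neurons, had normalized counts of 42.9, 53.5 and 17.6 in LF/LCL and 11.4, 18.6 and 7.59 in SF/SCL, which overlapped. HES1, the Notch target and repressor, had 689, 683 and 432 in LF/LCL and 873, 1441 and 1563 in SF/SCL, with a log2 fold change of 1.09 and an adjusted p of 0.424 in limma.

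Of 33 tested feedback and signalling genes, 2 had an unadjusted p under 0.05, both with SF/SCL lower, beside 8.66% of all rows. DUSP4, a nuclear MAP kinase phosphatase related to DUSP1, had normalized counts of 69.1, 92.9 and 54.5 in LF/LCL and 38.7, 13.3 and 19.5 in SF/SCL. Its groups did not overlap, in the direction opposite to DUSP1, with a log2 fold change of -1.66 ± 0.50 (SE) and an adjusted p of 0.433 in limma. SOCS3, the inhibitor of cytokine signalling through JAK and STAT, had 113, 132 and 103 in LF/LCL and 57.0, 55.9 and 87.8 in SF/SCL, a log2 fold change of -0.81 with an adjusted p of 0.574. None of the 12 tested secreted immediate early genes had an unadjusted p under 0.05. The chemokine gene CCL2 was at -1.11 with an adjusted p of 0.766 in limma, and EREG, an EGF family ligand, had only 0 to 20 reads per library.

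Of 28 upstream kinases and factors, 1 had an unadjusted p under 0.05 with SF/SCL lower and 2 with SF/SCL higher, beside 8.66% of all rows. ELK3, an ETS partner of SRF, had normalized counts of 1747, 2069 and 1901 in LF/LCL and 1373, 1342 and 1209 in SF/SCL, which did not overlap. Its log2 fold change was -0.54 ± 0.17 (SE), with an adjusted p of 0.442 in limma, and without cow 489215 it was -0.56 with an adjusted p of 0.0216. The ERK-dependent kinase gene RPS6KA1, at 1684, 1549.7 and 1580.1 in LF/LCL and 3336, 1997 and 3039.97 in SF/SCL, had a log2 fold change of 0.77 with an adjusted p of 0.437, and of 0.99 with an adjusted p of 0.00261 without cow 489215. MAPK13, a p38 kinase, had 575, 477 and 633 in LF/LCL and 909.98, 1026 and 802 in SF/SCL, with 0.70 and an adjusted p of 0.437.

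**Figure D4:**
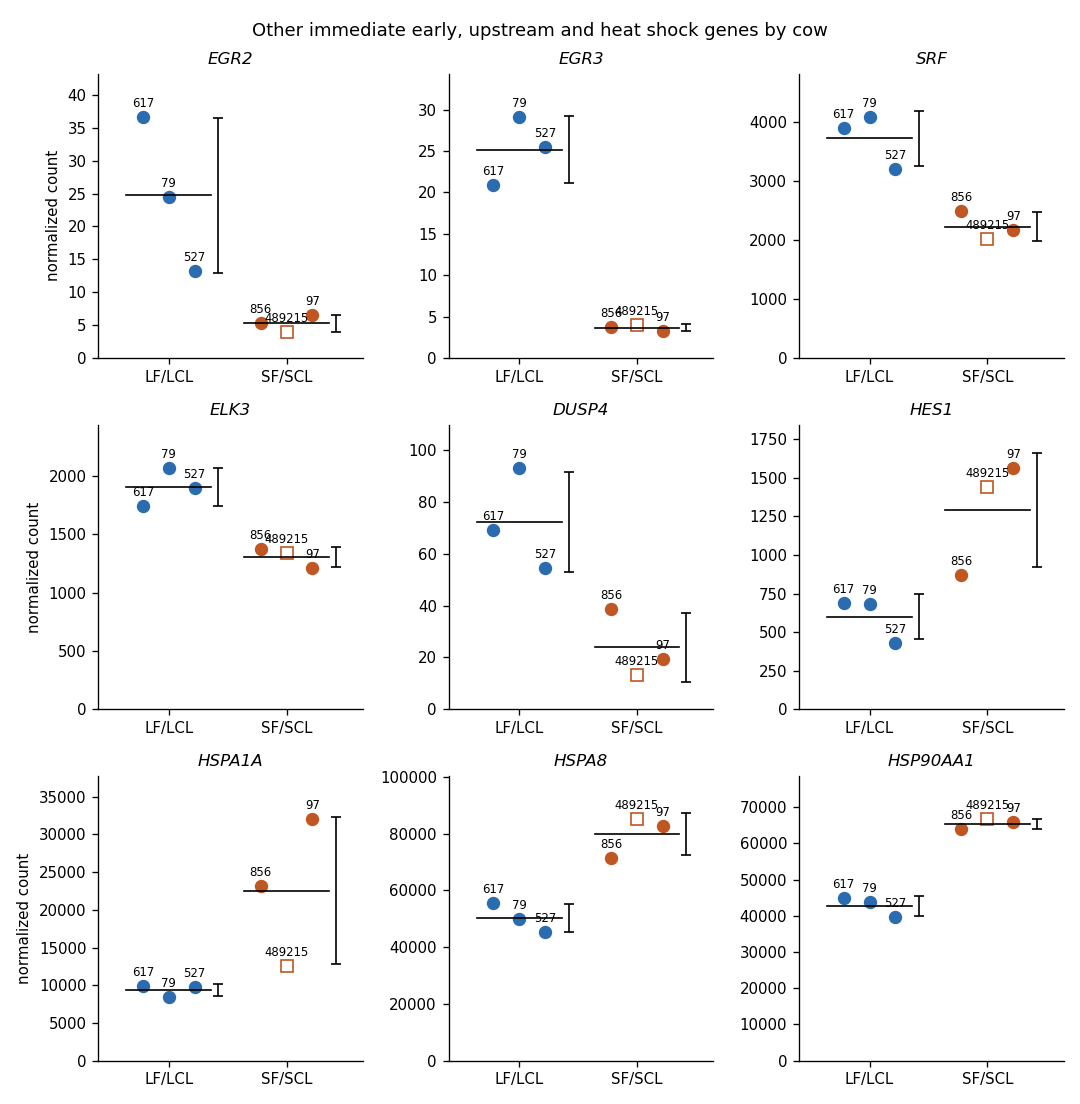
Normalized counts (linear axes from 0) of 9 further genes of the response in each cow, with LF/LCL in blue, SF/SCL in orange, cow 489215 as an open square, lines for group means and bars for the SD over 3 cows. The genes were picked for the plot after their values were seen, from the 16.5% of listed genes whose groups do not overlap (18.1% of all rows), with SF/SCL lower in EGR2, EGR3, SRF, ELK3 and DUSP4 and higher in HES1, HSPA1A, HSPA8 and HSP90AA1.

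The heat shock genes, chaperones and their regulators that cells raise under protein stress, had higher estimates in SF/SCL in 14 of 15 tested genes. The median log2 fold change was 0.45. Without cow 489215 the estimate was higher in 10 of the 15, with a median of 0.57. In that fit 7 passed the adjusted threshold in limma, all with SF/SCL higher, beside 18.2% of all rows. Over 6 cows an unadjusted p under 0.05 was reached by 6 of the 15, all with SF/SCL higher, beside 8.66% of all rows. In limma with equal weights 0 passed the adjusted threshold, while 5 passed it in DESeq2, beside 2.66% of all rows. The paper had already placed HSPA1A, HSPA8, HSPH1, DNAJB1 and HSP90AA1 in its enriched groups for the SF/SCL isthmus, from these same libraries. The list was chosen with earlier results of these data known, so its counts are a description and add no support. HSPA1A, the stress-inducible HSP70, had normalized counts of 9849, 8466 and 9808 in LF/LCL and 23129, 12557 and 32000.5 in SF/SCL, a log2 fold change of 1.17 ± 0.35 (SE) with an adjusted p of 0.437 in limma and of 1.54 with 0.00301 without cow 489215. Near-identical copies of HSP70 genes can share reads, so its count is uncertain. By qPCR of the isthmus the paper also had HSPA1A higher in SF/SCL, but without significance, in these cows and in a larger set. Over both oviduct regions it found no group effect on HSPA1A. HSP90AA1, the inducible HSP90, had 45021, 43720.0 and 39595 in LF/LCL and 63985, 66655 and 65867 in SF/SCL, with a log2 fold change of 0.62 and adjusted p-values of 0.455 in limma and 0.0048 in DESeq2.

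The co-chaperone gene DNAJA1, the HSP110 gene HSPH1 and the constitutive HSP70 gene HSPA8 had log2 fold changes of 1.01, 0.90 and 0.67, with adjusted p-values of 0.412, 0.405 and 0.463 in limma. In HSPA8 and HSP90AA1 cow 489215 was the highest cow, and in HSPA1A it was the lowest of the SF/SCL cows. In the list of the integrated stress and hypoxia response, 1 of 13 tested genes had an unadjusted p under 0.05, beside 8.66% of all rows. This was DDIT4, a stress-induced inhibitor of mTOR and a glucocorticoid target, with 6391, 6539 and 5946 in LF/LCL and 8116, 9297 and 8333 in SF/SCL, a log2 fold change of 0.45 and an adjusted p of 0.503. As for DUSP1, the epithelial, mesothelial and fibroblast marker sums moved with the groups beside these genes, and their part was not tested.

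**Figure D5:**
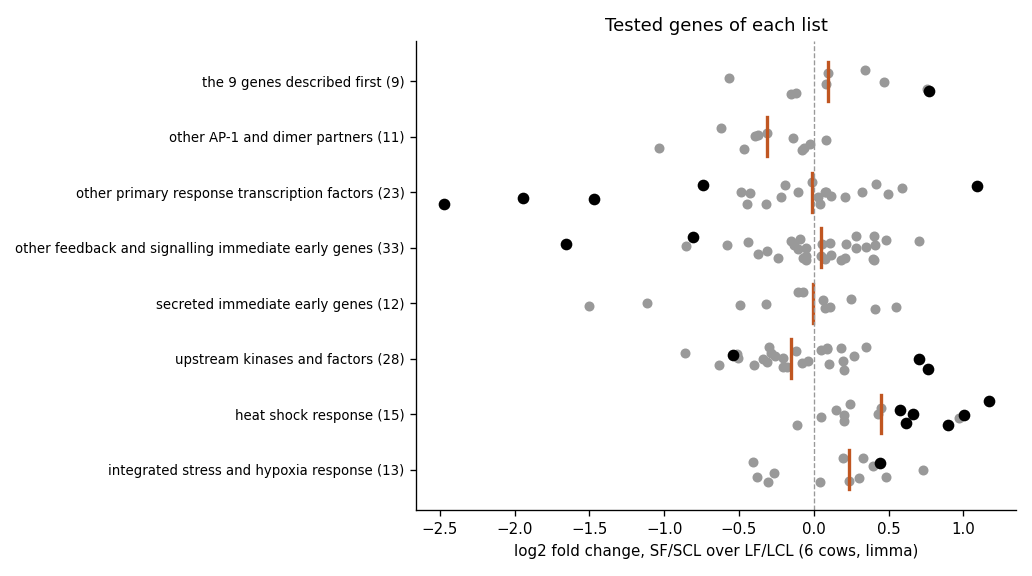
Log2 fold change, SF/SCL over LF/LCL, of each tested gene of the 9 genes described first and of the 7 lists, from limma over 6 cows. Each point is a gene, black where the unadjusted p was under 0.05, orange lines are list medians and the numbers of genes are in parentheses, and the median is 0.45 in the heat shock list and 0.10 in the 9 genes.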

How the data were processed

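The deposited signal values are read counts per Ensembl gene that the authors divided by a size factor of each library. Per the paper's methods, seqyClean served for read cleaning, and alignment to the masked UMD 3.1 assembly of the cow used TopHat2 2.0.8 and Bowtie2 2.1.0, with counting in HTSeq 0.5.4p2 and size factors from DESeq 1.12.1 (versions from the submitters' processing notes). Whether counting used the strand is not given in the sources used here, so overlapping and antisense genes cannot be told apart. Values were whole multiples of a step for each library, and whole reads were recovered for all 147696 values, with totals of 23899117 to 34193164 per library. No libraries were duplicates.

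Groups came from the sample titles. Rows whose mean exceeded 5 and also their SD were tested with limma 3.58.1 in R 4.3.3 (lmFit and eBayes, both trend and robust options on) applied to log2(value + 1), so fold changes of low genes are understated, with Benjamini-Hochberg adjustment over the 15387 rows and a threshold of 0.05. The p-values measure only the spread between these cows, and reads are not independent molecules, so counting intervals cover counting error only. No batch is named. Alternatives were edgeR 4.0.16 and DESeq2 1.42.0 on recovered reads, other pseudocounts (0.5 and 10), filters and scalings, array weights and leaving out each cow, while library totals and edgeR without cow 489215 were chosen after seeing the data. Scripts were tested on simulated data and ran in Python 3.11.15 (scipy 1.17.1, pandas 2.3.3, numpy 2.4.6, matplotlib 3.10.9). The genes and lists were chosen with earlier results of these data known. Named were all 9 genes, up to 5 genes per list with an unadjusted p under 0.05 (or else the 2 largest changes), the 10 rows most like the 9 genes, and marker sums. EGR4, FOSL1 and the genes under Other observations were named after their values were seen. Some genes that this rule selects are not reported here. No sequences or positions are given.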

Additional observations from a re-analysis of the deposited data

How the results depend on the processing

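With 3 cows a group, the adjusted threshold was reached by 0 of the 9 genes over 6 cows in limma with equal weights, edgeR and DESeq2, and by 3 (FOSL2, EGR1 and DUSP1) with array weights in limma, where 29.8% of all rows passed. It was reached by 1 (FOSL2) in edgeR without cow 489215, and by 0 to 1 over the fits that left out 1 cow each. The groups of 3 genes did not overlap in edgeR without cow 489215, and those of 1 to 3 over the fits that left out 1 cow. Of the other immediate early genes, 7 passed in DESeq2, 44 with array weights, 25 in edgeR without cow 489215 and 0 to 25 with 1 cow left out, the most without cow 489215. Of all rows, 2.66% passed in DESeq2 and 18.2% in limma without cow 489215. EGR3, which passed the filter through LF/LCL alone, is counted among the 7, the 44 and both counts of 25. FOS turned to 0.077 in edgeR with TMM and to 0.11 in edgeR with DESeq2 size factors and in DESeq2, and ranged from -0.73 to 0.54 with 1 cow left out. FOSL2 turned to 0.28, 0.30 and 0.30 in the same fits, to 0.66 with array weights and to 0.78 in edgeR without cow 489215, and ranged from -0.66 to 0.80 with 1 cow left out. FOSB was -0.0066 with array weights, -0.056 in edgeR without cow 489215 and -0.025 to 1.03 with 1 cow left out. JUN was -0.027 with array weights. JUNB was -0.011 with library totals, -0.062 in edgeR without cow 489215 and -0.14 to 0.23 with 1 cow left out. IER2 was -0.10 in edgeR without cow 489215 and -0.10 to 0.28 with 1 cow left out. The cause of the turns was not tested. Of 487 values of single genes under alternatives, 419 kept their direction and side of the threshold, 47 kept their direction and passed it, and 21 changed sign. EGR1, ATF3 and DUSP1 kept their sign in every alternative run. The median log2 fold change of all rows moved by less than 0.1 under every scaling run. FOSB, EGR2 and EGR3 are limited by depth. No paired analysis was possible because each cow gave 1 library and the groups share no cow number.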

Other observations

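Among the listed genes that varied too much between cows to be tested, RGS2, a regulator of G protein signalling in smooth muscle, had normalized counts of 198, 289 and 193 in LF/LCL and 242, 5818 and 1319 in SF/SCL, so that cow 489215 was 24.1-fold above the median of the other 5. SPRY4, an inhibitor of receptor tyrosine kinase signalling, had 228, 302 and 209 in LF/LCL and 703, 37.3 and 1853 in SF/SCL, lowest in cow 489215 as FOSL2 was. KLF6, a zinc finger factor induced by wounding, had the order of FOSL2, with 2032, 2744 and 2419 in LF/LCL and 4749.7, 1321 and 4216 in SF/SCL. NFIL3, a bZIP repressor that was also tested, was at 10609.6 in cow 489215 and between 1925 and 3921 in the other 5 cows. Its log2 fold change was 0.08 with an adjusted p of 0.979 in limma, and -0.62 with 0.0774 without cow 489215.

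Of the 28 upstream kinases and factors, 17 had a lower and 11 a higher estimate in SF/SCL over 6 cows. ELK1, another ETS partner of SRF, had normalized counts of 880.2, 879 and 787 in LF/LCL and 636, 779 and 603 in SF/SCL, without overlap, and a log2 fold change of -0.34 with an adjusted p of 0.724 in limma, and of -0.45 with an adjusted p of 0.0402 without cow 489215. The EGR corepressors NAB1 and NAB2 had log2 fold changes of 0.28 and 0.12 with adjusted p-values of 0.827 and 0.906 in limma over 6 cows, and their groups overlapped. Without cow 489215 the groups of both did not overlap, and limma gave 0.49 with an adjusted p of 0.0332 for NAB1 and 0.25 with 0.154 for NAB2. Without that cow 52% of all rows did not overlap, and 18.2% passed the adjusted threshold in limma. Over 6 cows 18.1% of all rows did not overlap. The calls of ELK1, NAB1 and NAB2 are thus common among all rows.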
